A study of Mus musculus with 18 samples.

Results

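The interleukin genes of mouse fat, meaning the interleukins and the chains of their receptors, were examined in a series that compared WT mice with mice lacking caspase-6. Members were taken by name. Of the 25124 genes in the deposited tables, 84 had a symbol that begins with Il and a digit, and 83 were kept once the antisense gene Il1bos was left out. A member was described where at least 10 counts were found in at least 3 libraries of a depot, which held for 52 of the 83. These were 44 members in iWAT (inguinal white adipose tissue), 51 in eWAT (epididymal white adipose tissue), 36 in BAT (brown adipose tissue) and 36 in all 3 depots. By role they were 12 of 38 ligands, 29 of 34 receptor chains, all 4 shared chains, all 5 decoys or antagonists and 2 relatives named for interleukin-4 induction that are neither cytokines nor receptors. Of the 31 members that were not described, 11 had no count in any of the 18 libraries and the highest count was 19, for Il21.

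The libraries came from male mice of the C57BL/6J background, all put on an HFD with 60% of its calories from fat at 10 to 14 weeks of age and kept on it for 12 weeks. C6KO mice lacked caspase-6 in every tissue, and WT and C6KO mice were bred from heterozygous parents. Since the loss was global, no difference can be tied to the loss in 1 cell type. Each depot had 3 WT and 3 C6KO libraries, given as biological replicates. The question was how the interleukin system of each depot differed between the genotypes, and how it differed between depots in WT mice.

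Interleukins are secreted proteins through which immune and stromal cells signal to one another. Most act through a ligand-binding receptor chain paired with a shared chain, such as the common gamma chain or gp130, and then through JAK kinases and STAT proteins, while receptors of the IL-1 family signal through MyD88 and IRAK kinases. Decoy receptors and antagonists bind the ligand or the receptor without signaling. In obese fat, macrophages, mast cells, lymphocytes and stromal cells all carry parts of this system.

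Library totals ran from 16506034 to 19043523 counts (iWAT), from 16717201 to 19139694 (eWAT), and from 7803108 to 12428683 (BAT). Brown adipocyte markers summed to 6754 to 16740 CPM in BAT and to 9.77 to 64.8 CPM in the white depots. Levels are given as CPM, counts scaled to library size after TMM normalization of all 18 libraries together. Casp6, the deleted gene, was at 20.3, 20.1 and 16.2 CPM (WT) against 5.55, 6.15 and 8.09 CPM (C6KO) for iWAT, at 17.4, 20.8 and 17.5 CPM (WT) against 5.42, 6.08 and 3.85 CPM (C6KO) for eWAT, and at 21.2, 11.9 and 15.3 CPM (WT) against 3.32, 5.84 and 7.61 CPM (C6KO) for BAT. No C6KO library reached the WT libraries of its depot. The fall passed edgeR's threshold in eWAT (adjusted p = 0.0132) and not in iWAT (adjusted p = 0.0751) or BAT (adjusted p = 0.0671), while DESeq2 passed it in all 3. Libraries stood apart within their groups. Among eWAT libraries, WT replicates 2 and 3 and C6KO replicate 3 had the highest sums of T and B cell markers, and in BAT WT replicate 2 had both the highest T and B cell sums and a skeletal muscle marker sum of 26750 CPM, against 36.1 to 5929 CPM in the other 5. In iWAT, C6KO replicate 3 lay nearer to WT in its macrophage markers than the other 2 C6KO libraries did.

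Few members were called changed in C6KO fat. A member was called changed at an edgeR adjusted p below 0.05 with at least a 1.5-fold difference. In eWAT 1 of 50 tested members fell, the IL-33 receptor Il1rl1, where 0.208% of all genes were called lower. In BAT 1 of 36 fell, the IL-7 receptor Il7r, where 1.07% of all genes were called lower. Il7r met the count rule there only through its WT libraries, since its C6KO libraries held 9, 4 and 9 counts. In iWAT edgeR called 0 of 43 lower, against 0.0206% of all genes, and 0 higher, against 0.00688%. Without C6KO replicate 3, however, it called 7 iWAT members in either direction, all of them lower (Il10ra, Il13ra1, Il13ra2, Il16, Il1rl1, Il1rn and Il7r). Of all genes, 8.64% were then called in either direction. No member was called higher in eWAT or BAT by edgeR, against 0.537% and 0.169% of all genes.

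Looser counts leaned toward lower values. At an unadjusted edgeR p below 0.05, 11 iWAT, 10 eWAT and 8 BAT members were lower (25.6%, 20% and 22.2% of those tested, against 9.29%, 7.82% and 8.64% of all genes). Higher at that level were 3, 1 and 0 members (7.25%, 9.81% and 4.56% of all genes). DESeq2 called 4 iWAT, 6 eWAT and 2 BAT members lower (3.42%, 1.23% and 2.65% of all genes) and 1 iWAT member higher (1.15% of all genes). It called none higher in eWAT or BAT (2.78% and 1.06% of all genes). All 3 C6KO libraries lay below all 3 WT libraries for 14, 11 and 9 members (32.6%, 22% and 25%, against 12.3%, 11.6% and 12.4% of all genes), and above them for 5, 2 and 1 (10.9%, 11.6% and 7.44% of all genes). Some lower members had fewer than 10 counts in most C6KO libraries: Il12rb1 and Il13ra2 in iWAT, Il27 in eWAT, and Il7r and Il21r in BAT. These were counted mainly through WT, where they were higher. The tested members had a median log2 fold change of -0.33 (iWAT), -0.29 (eWAT) and -0.16 (BAT), where the median over all genes was 0.03, -0.01 and -0.03.

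**Figure D1:**
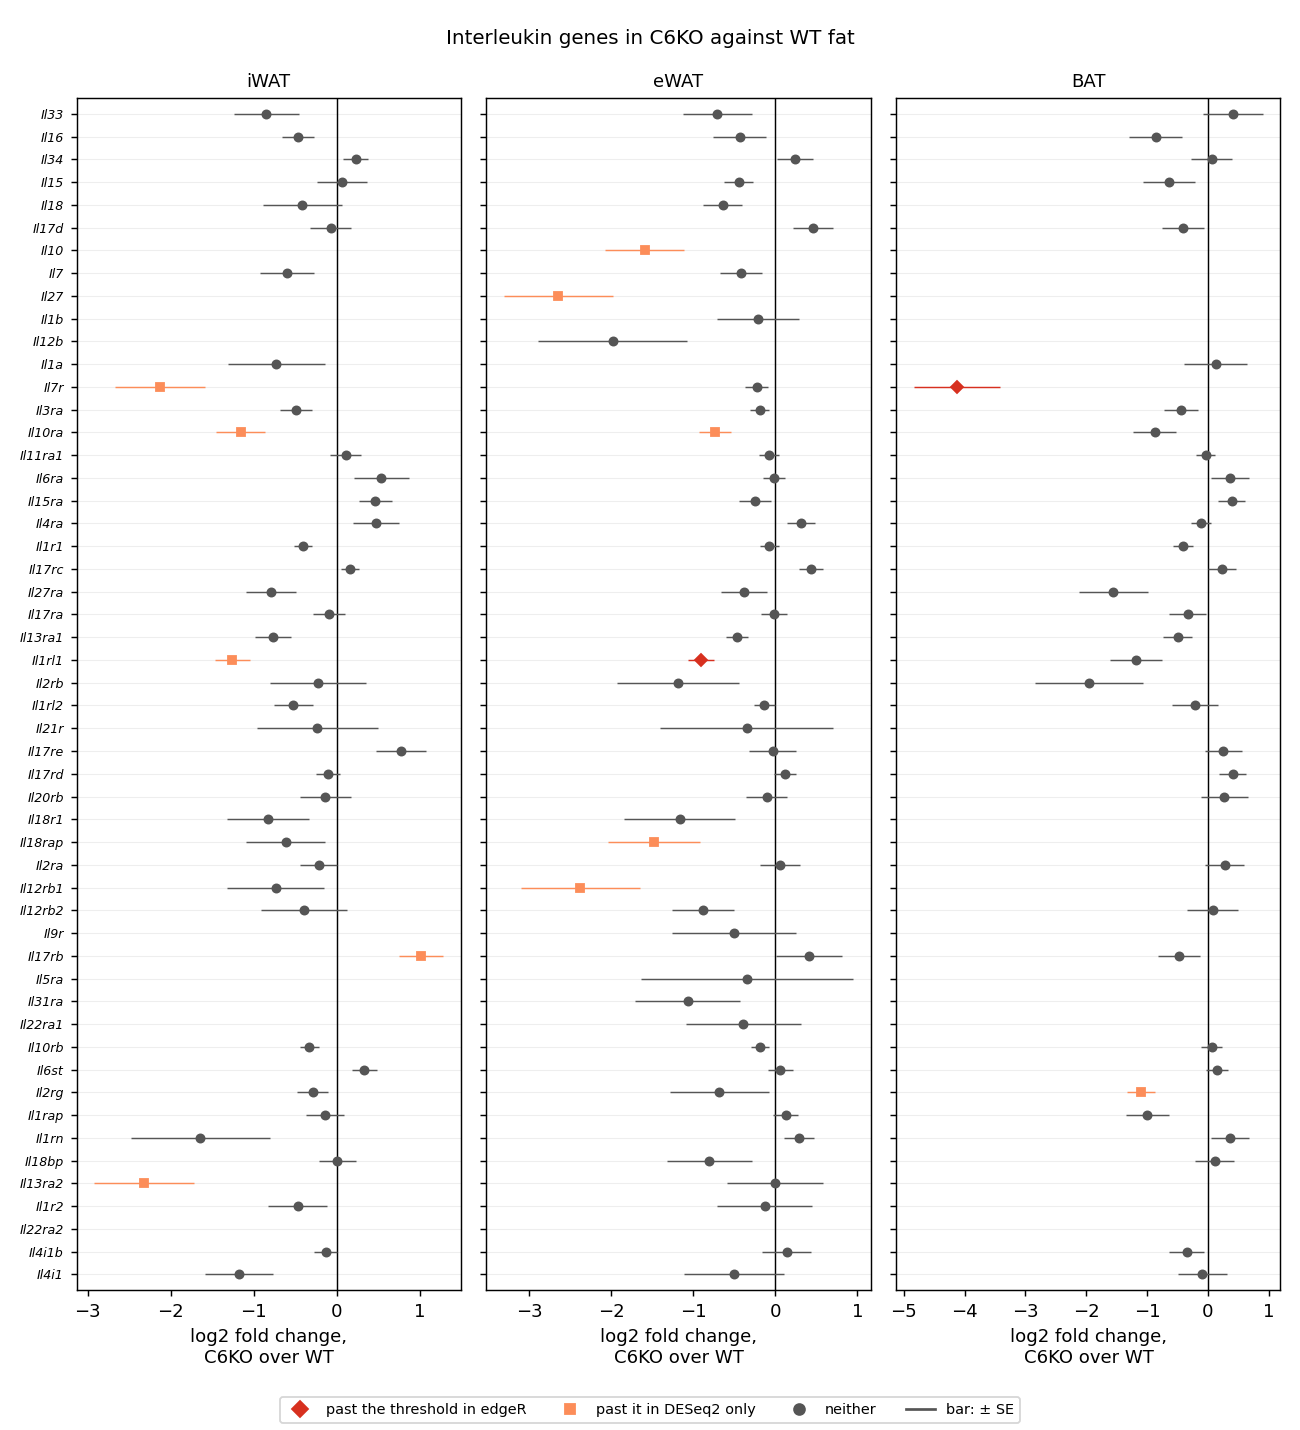
Log2 fold change of C6KO over WT (x axis, with a different range in each panel) for each described interleukin gene (rows, grouped by role) in iWAT, eWAT and BAT. Points are edgeR estimates from 3 C6KO and 3 WT libraries, bars are ± SE, red diamonds passed the edgeR threshold (Il1rl1 in eWAT and Il7r in BAT) and orange squares passed it only in DESeq2. Most points lie left of 0 in iWAT and eWAT, 32 of 43 and 39 of 50.

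Markers of immune, stromal and fat cells also differed between the genotypes. Summed over 10 macrophage markers, iWAT held 1539, 1591 and 1734 CPM (WT) against 425, 447 and 1192 CPM (C6KO), eWAT 5105, 6022 and 4971 CPM against 3366, 4138 and 3725 CPM, and BAT 828, 649 and 720.4 CPM against 385, 270.2 and 369 CPM. C6KO lay below WT without overlap for 9 (iWAT), 8 (eWAT) and 7 (BAT) of the 10 markers, against 12.3%, 11.6% and 12.4% of all genes. Of these, edgeR called 3 lower, all in BAT (Adgre1, Cd68 and Lyz2), where 1.07% of all genes were called lower. Cd163 and Mertk ran the other way in BAT, with overlap. Cd163 was at 8.91, 26.5 and 21.1 CPM (WT) against 26.5, 24.4 and 30.9 CPM (C6KO). The 7 mast cell markers in eWAT summed to 331, 299.5 and 222 CPM (WT) against 107, 145 and 156 CPM (C6KO). There 7 of 7 had a log2 fold change below 0, as did 50.9% of all genes. EdgeR called Cpa3 and Cma1 lower, where 0.208% of all genes were called lower. The mast cell sums were 55.1 to 78.7 CPM (WT) against 37.8 to 64.7 CPM (C6KO) for iWAT, and 37.9 to 66.4 CPM against 27.6 to 36.97 CPM for BAT. T cell marker sums overlapped between the genotypes in both white depots, while in BAT they were 5.99, 52.6 and 8.04 CPM (WT) against 4.35, 2.52 and 5.68 CPM (C6KO). The 7 adipocyte progenitor markers summed to 2356 to 2400 CPM (WT) against 1186 to 1793 CPM (C6KO) for iWAT, 3581 to 4068 CPM against 2864 to 3376 CPM for eWAT, and 770.6 to 1234 CPM against 619 to 931 CPM for BAT, which overlapped. In iWAT 5 of the 7 were lower without overlap (12.3% of all genes). There edgeR called 0 lower (0.0206% of all genes) while DESeq2 called 2 (3.42%). Of 6 adipocyte markers, 5 in iWAT and 6 in eWAT were higher in C6KO without overlap (10.9% and 11.6% of all genes). EdgeR called 2 of those in eWAT (0.537% of all genes). In BAT 1 was higher and 1 lower without overlap (7.44% and 12.4% of all genes), and edgeR called 1 lower (1.07%). The lower one was Lep, at 398, 536 and 341 CPM (WT) against 21.1, 42.2 and 61.8 CPM (C6KO). No macrophage, mast cell or T cell marker was at 0 in a whole group. The part of these cells in the results that follow was not tested, and fewer cells of a type and less RNA per cell cannot be told apart in bulk tissue.

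**Figure D2:**
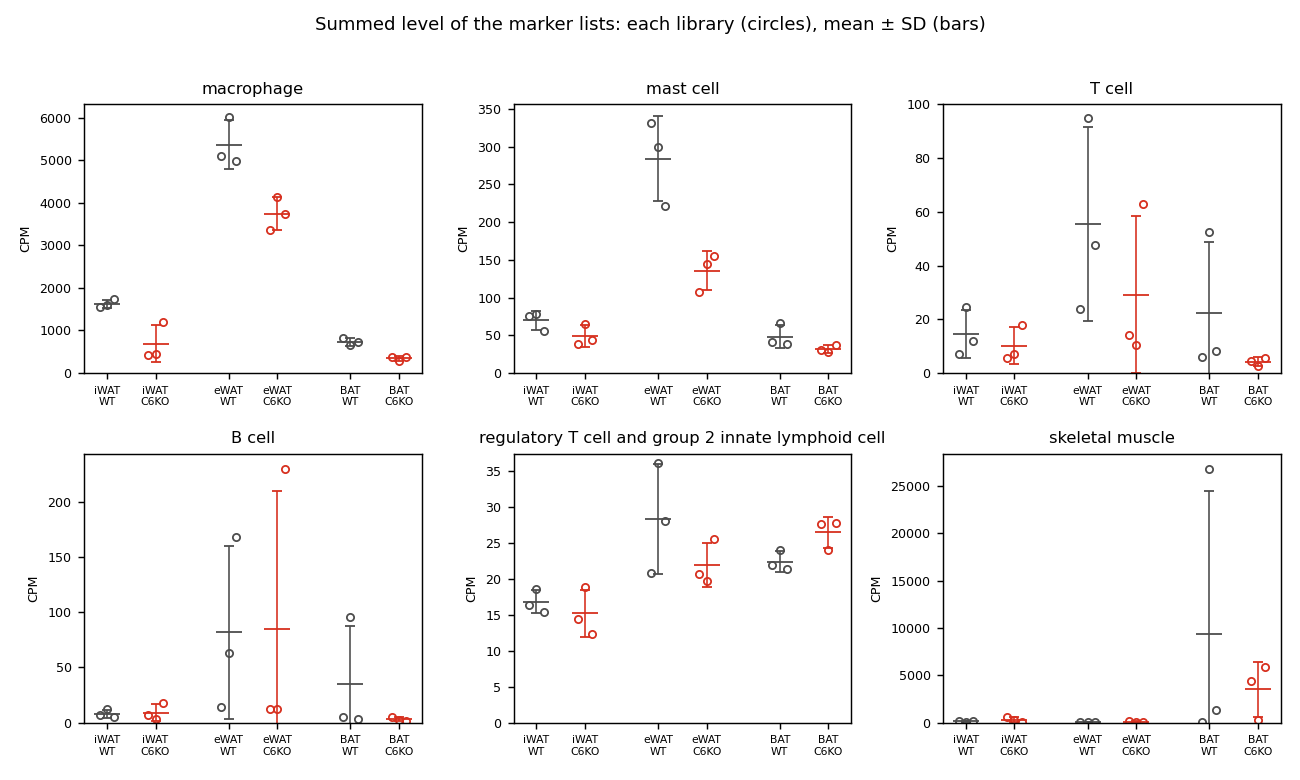
Summed CPM of marker genes (y axes, from 0) in each library of the 6 groups, for macrophages, mast cells, T cells, B cells, regulatory T cells with group 2 innate lymphoid cells, and skeletal muscle. Circles are libraries and bars are the mean ± SD of 3. Macrophage sums do not overlap between the genotypes in any depot, with C6KO below WT, and mast cell sums do not overlap in eWAT and BAT.

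Il1rl1 encodes ST2, the receptor chain that binds IL-33 and is carried by mast cells, regulatory T cells and group 2 innate lymphoid cells. It was lower in C6KO without overlap in all 3 depots. In eWAT it was at 34.5, 35.6 and 27.9 CPM (WT) against 13.9, 19.9 and 18.3 CPM (C6KO), a 1.87-fold fall (log2 fold change -0.91 ± 0.16 SE, n = 3 and 3, edgeR adjusted p = 0.0445, DESeq2 0.000186). In iWAT it was at 9.61, 10.3 and 9.08 CPM (WT) against 3.53, 4.45 and 4.07 CPM (C6KO), a log2 fold change of -1.26 ± 0.21 SE (edgeR adjusted p = 0.121, DESeq2 0.000303). In BAT it was at 3.21, 5.89 and 3.97 CPM (WT) against 1.15, 1.89 and 2.68 CPM (C6KO), a log2 fold change of -1.19 ± 0.43 SE (edgeR adjusted p = 0.265). The lowest WT library stood clear of the highest C6KO library in each depot, by the least in BAT. The call in eWAT was not kept when any library but C6KO replicate 2 was left out (edgeR adjusted p = 0.0657 to 0.19), nor with total counts as the only scaling (0.0501). The mast cell sums of the same eWAT libraries did not overlap either. The 6 markers of regulatory T cells and group 2 innate lymphoid cells summed in eWAT to 20.9, 36.2 and 28.04 CPM (WT) against 20.7, 19.8 and 25.5 CPM (C6KO), with overlap. Foxp3 was the largest part of this sum. In C6KO BAT it was at 9.59, 12 and 11.7 CPM, where the 8 T cell markers together summed to 4.35, 2.52 and 5.68 CPM. The sum of the 6 markers therefore cannot be taken as a measure of these cells, and whether they differed was not tested. Areg, another of the 6 markers, was at 0 in all WT iWAT libraries and in all BAT libraries. In eWAT it was low but higher in C6KO without overlap, at 0, 0.148 and 0.211 CPM (WT) against 1.41, 0.784 and 0.625 CPM (C6KO). DESeq2 called it higher there, while 4 of the 5 markers tested had a log2 fold change below 0.

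Il1rl1 lies at chr1:40439629-40465414 on the plus strand of mm10, in a cluster of IL-1 family receptors that runs Il1r2, Il1r1, Il1rl2, Il1rl1, Il18r1 and Il18rap from 40086093 to 40551705. RefSeq gives Il1rl1 more than 1 start. The windows of 250 bases before 2 of them are shown in full (RefSeq, build GRCm38.p6, which has the mm10 coordinates), since Il1rl1 and Il7r are the members edgeR called in C6KO and Il13ra1 is the other member below WT without overlap in all 3 depots. Of the 83 members, 66 had a window. Capitals mark matches on either strand to AGGAAG (the core of ETS factor sites), GATAA (GATA factors) and TGANTCA (AP-1). Among 32851 promoter windows, 29.5% held AGGAAG, 22.6% held GATAA and 6.75% held TGANTCA.
Il1rl1 distal start, chr1:40429320-40429569, plus strand: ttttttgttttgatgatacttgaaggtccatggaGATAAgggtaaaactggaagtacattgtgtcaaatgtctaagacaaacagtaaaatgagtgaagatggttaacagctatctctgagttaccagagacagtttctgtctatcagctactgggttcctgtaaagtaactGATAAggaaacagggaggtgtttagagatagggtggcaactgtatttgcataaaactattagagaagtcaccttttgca
Il1rl1 proximal start, chr1:40439379-40439628, plus strand: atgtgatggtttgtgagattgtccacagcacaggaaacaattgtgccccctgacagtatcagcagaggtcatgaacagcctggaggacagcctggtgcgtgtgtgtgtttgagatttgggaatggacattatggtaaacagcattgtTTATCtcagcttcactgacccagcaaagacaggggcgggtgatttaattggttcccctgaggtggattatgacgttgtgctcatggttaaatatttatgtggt
Il7r, chr15:9529877-9530126, minus strand: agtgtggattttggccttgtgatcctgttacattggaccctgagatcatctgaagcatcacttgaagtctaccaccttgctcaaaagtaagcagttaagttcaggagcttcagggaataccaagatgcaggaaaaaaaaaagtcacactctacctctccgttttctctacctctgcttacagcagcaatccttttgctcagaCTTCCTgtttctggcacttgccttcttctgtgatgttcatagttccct
Il13ra1, chrX:36111858-36112107, plus strand: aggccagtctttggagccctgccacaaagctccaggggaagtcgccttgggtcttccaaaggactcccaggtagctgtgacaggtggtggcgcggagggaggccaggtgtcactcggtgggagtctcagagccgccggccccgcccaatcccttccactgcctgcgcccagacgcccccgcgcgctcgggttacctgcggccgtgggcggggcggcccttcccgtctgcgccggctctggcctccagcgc
The distal Il1rl1 window held 2 GATAA matches and the proximal window, which ends at the base before the counted transcript, held 1 on the other strand, written TTATC. The Il7r window held 1 AGGAAG on the other strand, written CTTCCT, and the Il13ra1 window held none of the 3. No matches shared bases. These are matches of letters only, in windows that the counts do not measure.

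IL-33 itself, the alarmin that ST2 binds, was at 28.2, 26.4 and 26.2 CPM (WT) against 9.82, 10.9 and 28.4 CPM (C6KO) in eWAT (log2 fold change -0.71 ± 0.42 SE, edgeR adjusted p = 0.466). C6KO replicates 1 and 2 lay far below WT and replicate 3 above it, and edgeR called Il33 lower in eWAT when C6KO replicate 3 was left out (adjusted p = 0.0209). The sum of the 6 mesothelial markers in eWAT was likewise lowest in C6KO replicates 1 and 2, at 209, 200 and 124 CPM (WT) against 45.3, 91.5 and 185 CPM (C6KO). This did not hold for each marker, since Msln was at 22.5 CPM in C6KO replicate 2 and 19.3 CPM in WT replicate 3. The part of mesothelial cells was not tested.

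Il13ra1, the chain that joins IL-4 receptor alpha to bind IL-4 and IL-13, was the other member that was lower without overlap in all 3 depots. It was at 11.9, 12.9 and 12.4 CPM (WT) against 5.83, 6.42 and 9.52 CPM (C6KO) in iWAT (log2 fold change -0.77 ± 0.22 SE, edgeR adjusted p = 0.175). It was at 26.8, 29.5 and 22.5 CPM (WT) against 18.3, 18.6 and 19.9 CPM (C6KO) in eWAT (log2 fold change -0.46 ± 0.13 SE, edgeR adjusted p = 0.113). BAT had 9.93, 8.98 and 9.03 CPM (WT) against 6.78, 7.28 and 5.57 CPM (C6KO), a log2 fold change of -0.49 ± 0.23 SE (edgeR adjusted p = 0.405). None of the 3 passed the threshold, and DESeq2 came nearest in iWAT (adjusted p = 0.0539). Its partner Il4ra was at 68.7, 62.3 and 61.7 CPM (WT) against 132, 74.3 and 59.5 CPM (C6KO) in iWAT, where the groups overlapped.

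The receptors of the common gamma chain family were led by Il7r, the chain that binds IL-7 (chr15:9506159-9529876, minus strand). In BAT it was at 10.7, 25.9 and 5.84 CPM (WT) against 1.15, 0.3595 and 0.965 CPM (C6KO), a 17.5-fold fall (log2 fold change -4.13 ± 0.71 SE, edgeR adjusted p = 0.0469, DESeq2 8.07e-09). These rest on raw counts of 73, 277 and 53 (WT) against 9, 4 and 9 (C6KO). In iWAT it was at 38.1, 40.5 and 42.7 CPM (WT) against 4.71, 4.56 and 18.5 CPM (C6KO), a log2 fold change of -2.13 ± 0.54 SE (edgeR adjusted p = 0.168, DESeq2 0.0312). The groups did not overlap in either depot, and in iWAT C6KO replicate 3 lay between WT and the other 2 C6KO libraries. Without that library the iWAT log2 fold change was -3.14 (edgeR adjusted p = 7.94e-05).

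Il7r was most abundant in eWAT, where the genotypes overlapped, at 164, 129.7 and 152 CPM (WT) against 148, 126 and 105 CPM (C6KO), a log2 fold change of -0.23 ± 0.14 SE (edgeR adjusted p = 0.46). BAT WT replicate 2, the library with high lymphocyte and muscle markers, held the highest Il7r of its group, and without it the BAT log2 fold change was -3.29 (edgeR adjusted p = 0.0163). The BAT call was lost without WT replicate 1 or any 1 of the 3 C6KO libraries (edgeR adjusted p = 0.119 to 0.208). Its ligand Il7 was at 3.07, 1.03 and 2.75 CPM (WT) against 0.639, 0.3595 and 0.7502 CPM (C6KO) in BAT, also without overlap, but had too few counts there for the edgeR test.

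Il2rg, the common gamma chain itself (chrX:101264385-101268255), was at 15.8, 24.1 and 18.8 CPM (WT) against 8.95, 10.4 and 8.04 CPM (C6KO) in BAT, every C6KO library below WT (log2 fold change -1.095 ± 0.23 SE, edgeR adjusted p = 0.0646, DESeq2 0.0082). The groups overlapped in iWAT, at 20.5, 23.2 and 23.9 CPM (WT) against 15.02, 16.4 and 23.7 CPM (C6KO), as they did in eWAT, at 22.7, 77.5 and 47.3 CPM (WT) against 21.8, 20.6 and 49.4 CPM (C6KO). In eWAT the higher values belonged to WT replicates 2 and 3 and C6KO replicate 3, the libraries with the highest T and B cell sums.

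Both chains of the IL-10 receptor were lower without overlap in white fat, though not by edgeR's threshold. Il10ra, which binds IL-10 (chr9:45253837-45269149), was at 34.9, 31.2 and 35.6 CPM (WT) against 12, 9.94 and 23.6 CPM (C6KO) in iWAT (log2 fold change -1.16 ± 0.297 SE, edgeR adjusted p = 0.166, DESeq2 0.00645). In eWAT it was at 87.5, 141 and 95.4 CPM (WT) against 61.2, 59.3 and 74.2 CPM (C6KO), a log2 fold change of -0.73 ± 0.19 SE (edgeR adjusted p = 0.0972, DESeq2 0.00612). In BAT the groups overlapped, at 8.76, 20.2 and 10.7 CPM (WT) against 9.08, 5.57 and 7.18 CPM (C6KO). WT replicate 2 was the highest library in eWAT, and without it the eWAT log2 fold change was -0.49 (edgeR adjusted p = 0.255).

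Il10rb, which IL-10 receptors share with those of IL-22 and the lambda interferons, was at 84.9, 79.8 and 86.1 CPM (WT) against 59.8, 65.9 and 73.1 CPM (C6KO) in iWAT (log2 fold change -0.33 ± 0.11 SE, edgeR adjusted p = 0.218). In eWAT it was at 184, 149.8 and 158 CPM (WT) against 133, 149 and 149 CPM (C6KO), a log2 fold change of -0.19 ± 0.11 SE (edgeR adjusted p = 0.436). The nearest WT and C6KO libraries of eWAT almost touched, and in BAT the groups overlapped, at 76.1, 52.1 and 72.8 CPM (WT) against 62.1, 75.6 and 69.7 CPM (C6KO). The ligand Il10 was at 1.79, 5.803 and 2.11 CPM (WT) against 1.03, 0.9803 and 1.198 CPM (C6KO) in eWAT (log2 fold change -1.59 ± 0.48 SE, edgeR adjusted p = 0.126, DESeq2 0.0429). WT replicate 2 was again the highest, and without it the log2 fold change was -0.85 (edgeR adjusted p = 0.515).

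Il1r1, the signaling receptor for IL-1, was lower without overlap in iWAT and BAT, by small amounts. It was at 39.7, 42.9 and 42.9 CPM (WT) against 31.3, 31.1 and 31.7 CPM (C6KO) in iWAT (log2 fold change -0.41 ± 0.11 SE, edgeR adjusted p = 0.166). It was at 32.1, 31.1 and 37.5 CPM (WT) against 27.6, 23.01 and 24.5 CPM (C6KO) in BAT (log2 fold change -0.41 ± 0.16 SE, edgeR adjusted p = 0.316). In eWAT they overlapped, at 61.1, 56.2 and 58.8 CPM (WT) against 57.9, 48.1 and 60.8 CPM (C6KO).

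Receptor chains for IL-12 and IL-18 were scarce. Il12rb1, shared by the IL-12 and IL-23 receptors, was at 0.866, 5.85 and 1.37 CPM (WT) against 0.542, 0.4901 and 0.521 CPM (C6KO) in eWAT (log2 fold change -2.38 ± 0.73 SE, edgeR adjusted p = 0.141, DESeq2 0.0173). In iWAT it was at 0.652, 0.892 and 0.728 CPM (WT) against 0.617, 0.2196 and 0.516 CPM (C6KO), again without overlap (edgeR adjusted p = 0.559). Il18rap, the accessory chain of the IL-18 receptor at the end of the chromosome 1 cluster, was at 3.52, 13.7 and 4.44 CPM (WT) against 2.01, 2.11 and 3.65 CPM (C6KO) in eWAT, where WT and C6KO overlapped (log2 fold change -1.48 ± 0.56 SE, edgeR adjusted p = 0.233, DESeq2 0.0398). In both, WT replicate 2, the library with the highest T cell sum, was far above the rest. Without it the eWAT log2 fold changes were -1.1 and -0.61 (edgeR adjusted p = 0.518 and 0.612).

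Il17rb and Il17rc, receptors of the IL-17 family, were among the members with higher values in C6KO white fat. Of the same family, the receptor chain Il17re was also higher without overlap in iWAT, and the ligand Il17d in eWAT. In BAT Il17d was lower without overlap. Il17rb, the chain that binds IL-25 (chr14:29996168-30008896), was at 3.32, 2.97 and 2.297 CPM (WT) against 5.89, 5.27 and 6.19 CPM (C6KO) in iWAT, with no overlap (log2 fold change 1.02 ± 0.27 SE, edgeR adjusted p = 0.165, DESeq2 0.0345). It overlapped in eWAT at 1.68, 1.13 and 1.11 CPM (WT) against 2.33, 1.76 and 1.09 CPM (C6KO). In BAT all C6KO libraries were below WT, at 3.07, 3.37 and 4.63 CPM (WT) against 2.69, 2.88 and 2.36 CPM (C6KO), a log2 fold change of -0.47 ± 0.34 SE (edgeR adjusted p = 0.616). Il17rc, which pairs with Il17ra to bind IL-17A and IL-17F, was the 1 member higher without overlap in 2 depots. It was at 47.5, 52.5 and 53.7 CPM (WT) against 55.8, 58.1 and 57.9 CPM (C6KO) in iWAT (edgeR adjusted p = 0.469) and at 19, 21.2 and 20.6 CPM (WT) against 22.6, 27.5 and 31.7 CPM (C6KO) in eWAT (log2 fold change 0.43 ± 0.15 SE, edgeR adjusted p = 0.162). In BAT it overlapped at 35.8, 19.4 and 33.1 CPM (WT) against 31.2, 30.3 and 40.5 CPM (C6KO).

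**Figure D3:**
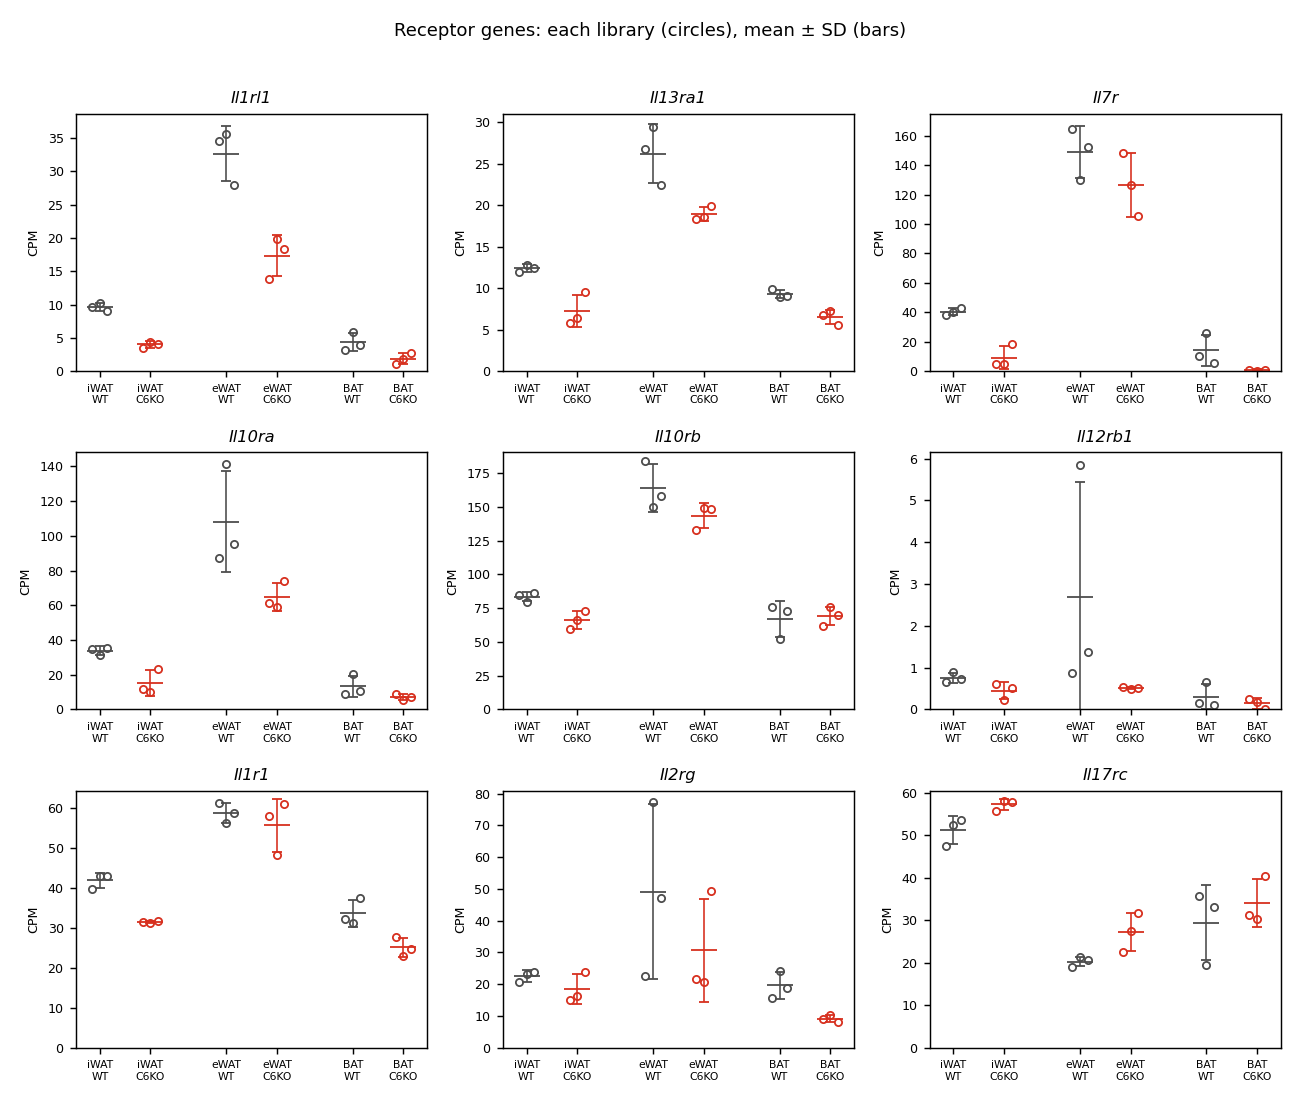
CPM (y axes, from 0) of 9 receptor genes in each library of the 6 groups. Circles are libraries and bars are the mean ± SD of 3 WT (gray) or 3 C6KO (red) libraries. Il1rl1 and Il13ra1 are lower in C6KO without overlap in each depot, and Il7r separates the genotypes in iWAT and BAT but not in eWAT.

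Ligands were at low levels, and none passed the edgeR threshold in any depot. Of the tested ligands, 6 of 8 in iWAT, 9 of 11 in eWAT and 3 of 6 in BAT had a log2 fold change below 0. Il27, a subunit of IL-27, was at 0.758, 1.48 and 0.792 CPM (WT) against 0.163, 0.04901 and 0.2604 CPM (C6KO) in eWAT (log2 fold change -2.65 ± 0.66 SE, edgeR adjusted p = 0.0789, DESeq2 0.0369). That value is uncertain, since Il27 overlaps Apobr on the other strand, which had 11624 counts over the 18 libraries against 132 for Il27, and whether counting used strand is not given in the sources used here. In eWAT, Il15, Il18 and Il7 were also lower in all C6KO libraries, with log2 fold changes of -0.45, -0.64 and -0.42 (edgeR adjusted p = 0.238, 0.2 and 0.456). Il34, a ligand of the CSF1 receptor, was at 23.6, 18.3 and 24.2 CPM (WT) against 25.3, 26.7 and 25.2 CPM (C6KO) in iWAT, every C6KO library above WT (edgeR adjusted p = 0.468).

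The study also measured Il6 and Il1b by qPCR. Il6 did not reach 10 counts in any library, with iWAT at 1, 3 and 0 counts (WT) against 2, 0 and 0 (C6KO), eWAT at 6, 2 and 1 against 3, 0 and 2, and BAT at 5, 1 and 1 against 0, 0 and 0. No difference in Il6 was detectable at this depth. Il1b had 10, 27 and 18 counts (WT) against 11, 14 and 22 (C6KO) in eWAT (log2 fold change -0.22 ± 0.5 SE, edgeR adjusted p = 0.876). Its iWAT counts were 8, 11 and 4 (WT) against 5, 3 and 0 (C6KO), and its BAT counts 10, 5 and 4 against 6, 5 and 10. The genotypes overlapped for Il1b in all 3 depots.

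Decoys and antagonists included 1 abundant member, Il1rn, the secreted antagonist of the IL-1 receptor. It was at 38.8, 30.9 and 41.3 CPM (WT) against 4.15, 2.47 and 29.01 CPM (C6KO) in iWAT, where C6KO replicates 1 and 2 were far below WT and replicate 3 was just below it (log2 fold change -1.64 ± 0.84 SE, edgeR adjusted p = 0.383). The same 3 libraries had macrophage sums of 425, 447 and 1192 CPM. Without C6KO replicate 3, Il1rn was among 7 members called lower in iWAT. In eWAT it was at 73.2, 44.3 and 74.2 CPM (WT) against 82.9, 73.4 and 76.4 CPM (C6KO), with an edgeR adjusted p of 0.485 and in BAT at 14.6, 7.29 and 10.7 CPM (WT) against 14.2, 17.9 and 9.11 CPM (C6KO), with an edgeR adjusted p of 0.681, with overlap in both.

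Il13ra2, the decoy receptor for IL-13 (chrX:147383478-147429192), was low and did not overlap in iWAT, at 1.54, 1.37 and 3.08 CPM (WT) against 0.224, 0.275 and 0.688 CPM (C6KO), a log2 fold change of -2.32 ± 0.61 SE (edgeR adjusted p = 0.165, DESeq2 0.0229). In eWAT it was at 3.79, 2.31 and 1.43 CPM (WT) against 1.52, 4.85 and 1.09 CPM (C6KO), with overlap and close means (edgeR adjusted p = 0.999). In BAT it had too few counts to be tested. The other 3 decoys overlapped between the genotypes in every depot. Il1r2, the decoy receptor for IL-1 next to Il1r1, was at 3.499, 2.26 and 3.59 CPM (WT) against 1.68, 2.36 and 2.695 CPM (C6KO) in iWAT. Its eWAT values were 1.35, 2.02 and 1.11 CPM (WT) against 0.325, 1.72 and 2.03 CPM (C6KO), and its BAT values 0, 2.62 and 0.2203 CPM (WT) against 0.256, 0.449 and 1.39 CPM (C6KO). Il18bp, the secreted IL-18 binding protein, was at 6.999, 8.86 and 6.39 CPM (WT) against 7.904, 6.42 and 7.97 CPM (C6KO) in iWAT, 6.22, 19.3 and 7.45 CPM (WT) against 4.45, 4.901 and 9.48 CPM (C6KO) in eWAT, and 4.38, 3.83 and 4.52 CPM (WT) against 5.75, 3.33 and 4.61 CPM (C6KO) in BAT. Its highest value belonged to eWAT WT replicate 2. Il22ra2, a soluble IL-22 receptor, was near the floor, at 1.19, 0 and 0.5602 CPM (WT) against 0, 0.329 and 1.32 CPM (C6KO) in iWAT, 0.325, 0.5901 and 0.0528 CPM (WT) against 0.542, 0.392 and 0 CPM (C6KO) in eWAT, and 0.292, 0.281 and 0.2203 CPM (WT) against 0.895, 0 and 0 CPM (C6KO) in BAT.

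**Figure D4:**
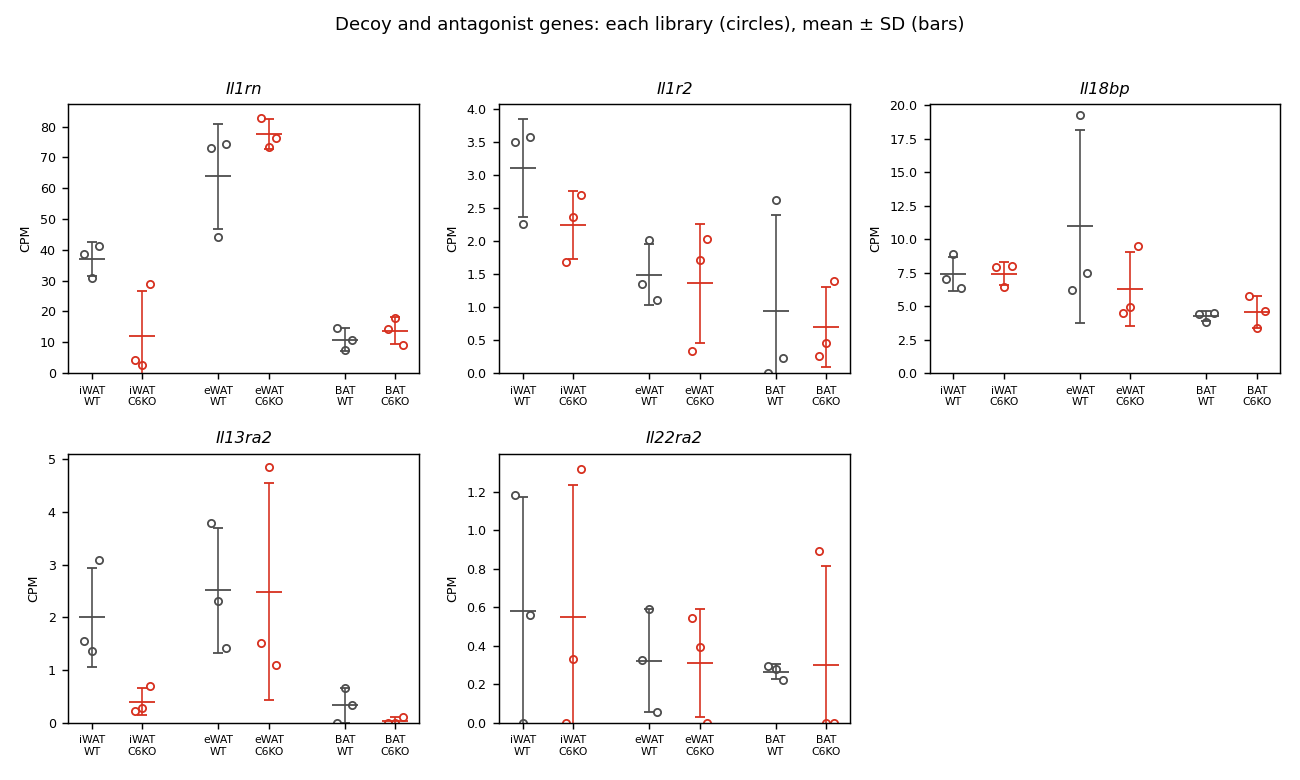
CPM (y axes, from 0) of the 5 decoys and antagonists in each library of the 6 groups. Circles are libraries and bars are the mean ± SD of 3 WT (gray) or 3 C6KO (red) libraries. Il1rn and Il13ra2 are lower in the C6KO libraries of iWAT, with the third C6KO library near WT for Il1rn, and overlap in eWAT and BAT.

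Other genes of the pathway were taken from 5 lists, and edgeR called 0 of their genes in any depot. In the list for maturation of IL-1 and IL-18, which holds inflammasome genes, 9 of 10 genes in iWAT, 9 of 10 in eWAT and 10 of 10 in BAT had a log2 fold change below 0. Unadjusted p was below 0.05 for 7, 8 and 5 of them with lower values and for 1, 0 and 0 with higher values, and DESeq2 called 4, 5 and 1 lower. Over all genes those shares were 9.29%, 7.82% and 8.64% lower and 7.25%, 9.81% and 4.56% higher at the unadjusted p, and 3.42%, 1.23% and 2.65% lower by DESeq2. Casp1, which cleaves the precursors of IL-1 beta and IL-18, was at 25.2 ± 2.47 CPM (WT) against 13.5 ± 2.78 CPM (C6KO) in iWAT (SD, n = 3 each, edgeR adjusted p = 0.145, DESeq2 0.00292). Pycard, the inflammasome adaptor, was at 5.08 ± 1.68 CPM (WT) against 1.34 ± 0.873 CPM (C6KO) in BAT (edgeR adjusted p = 0.133, DESeq2 0.0336).

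Of 19 family ligands and receptors without an Il symbol, 19 (iWAT), 18 (eWAT) and 14 (BAT) could be tested. Unadjusted p was below 0.05 for 3, 3 and 2 of them with lower values (9.29%, 7.82% and 8.64% of all genes) and for 1, 1 and 0 with higher values (7.25%, 9.81% and 4.56% of all genes). With so few genes, these counts do not show whether the list differed from all genes. DESeq2 called 2, 0 and 1 lower and 0, 1 and 0 higher (3.42%, 1.23% and 2.65% of all genes lower, 1.15%, 2.78% and 1.06% higher). Csf2ra, which binds GM-CSF, was at 78.5 ± 5.57 CPM (WT) against 36.8 ± 10.6 CPM (C6KO) in iWAT (edgeR adjusted p = 0.121, DESeq2 0.000145). Csf1r, the receptor for CSF1 and IL-34 and one of the genes macrophages carry, was at 85.8 ± 10.1 CPM (WT) against 49.9 ± 6.996 CPM (C6KO) in BAT (edgeR adjusted p = 0.0714, DESeq2 0.00635). Cntfr, the CNTF receptor that works with gp130, was higher in every C6KO library of eWAT, at 3.24 ± 1.06 CPM (WT) against 8.35 ± 1.41 CPM (C6KO), with an edgeR adjusted p of 0.0546, DESeq2 0.000707.

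The signaling lists held no gene past the threshold. DESeq2, like edgeR, called 0 of 13 adaptors and kinases, 0 of 7 STATs and 0 of 10 inhibitors in every depot. In BAT edgeR could test only 6 of the 7 STATs. Unadjusted p was below 0.05 for 0, 1 and 0 adaptors and kinases with lower values and 0, 1 and 1 with higher values (iWAT, eWAT and BAT in that order), for 0 STATs, and for 0, 1 and 1 inhibitors, all lower. The kinase Irak2, which acts below IL-1 family receptors, had the smallest p among them in eWAT. It was at 80.4 ± 0.713 CPM (WT) against 119 ± 16.8 CPM (C6KO), with C6KO above WT in every library. Its edgeR adjusted p was 0.0571. The DESeq2 adjusted p was 0.00193, and the 1.48-fold rise fell short of the 1.5-fold minimum.

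In WT fat, receptors made up the most abundant members, compared here as RPKM, which is CPM divided by the length of the counted transcript. The highest in iWAT were Il6st, which is gp130, at 57.4 ± 5.97 RPKM (SD, n = 3), Il10rb at 45.4 ± 1.84, Il15ra at 24.8 ± 6.01, Il3ra at 22.02 ± 2.302 and Il17rc at 21.8 ± 1.39. The last 3 did not differ from one another beyond their spread. In eWAT they were Il10rb at 89.1 ± 9.64 RPKM, Il6st at 54.96 ± 3.34, Il7r at 46.5 ± 5.48, Il3ra, which binds IL-3, at 33.3 ± 1.87 and Il10ra at 30.97 ± 8.34. Il10rb stood clear of the next gene, while Il3ra and Il10ra lay within their spread. In BAT they were Il15ra, the chain that presents IL-15, at 57.2 ± 14.2 RPKM, Il6st at 36.7 ± 6.11, Il10rb at 36.4 ± 7.07, Il11ra1 at 16.2 ± 2.1 and Il17rc at 12.5 ± 3.75. Il6st and Il10rb did not differ there, and reads of Il11ra1 can be shared with its near-identical copy Il11ra2.

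Ligands were below these receptors. The highest was Il34 in iWAT, Il33 in eWAT and Il15 in BAT, the last at 5.82 ± 1.58 RPKM. Il34 was at 11.9 ± 1.73, 8.18 ± 1.21 and 4.09 ± 0.903 RPKM in WT iWAT, eWAT and BAT. Il33 was at 1.87 ± 0.654, 10.2 ± 0.421 and 1.501 ± 0.995 RPKM, highest in eWAT. Its receptor Il1rl1 had the same order, at 1.83 ± 0.115, 6.17 ± 0.786 and 0.824 ± 0.261 RPKM.

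**Figure D5:**
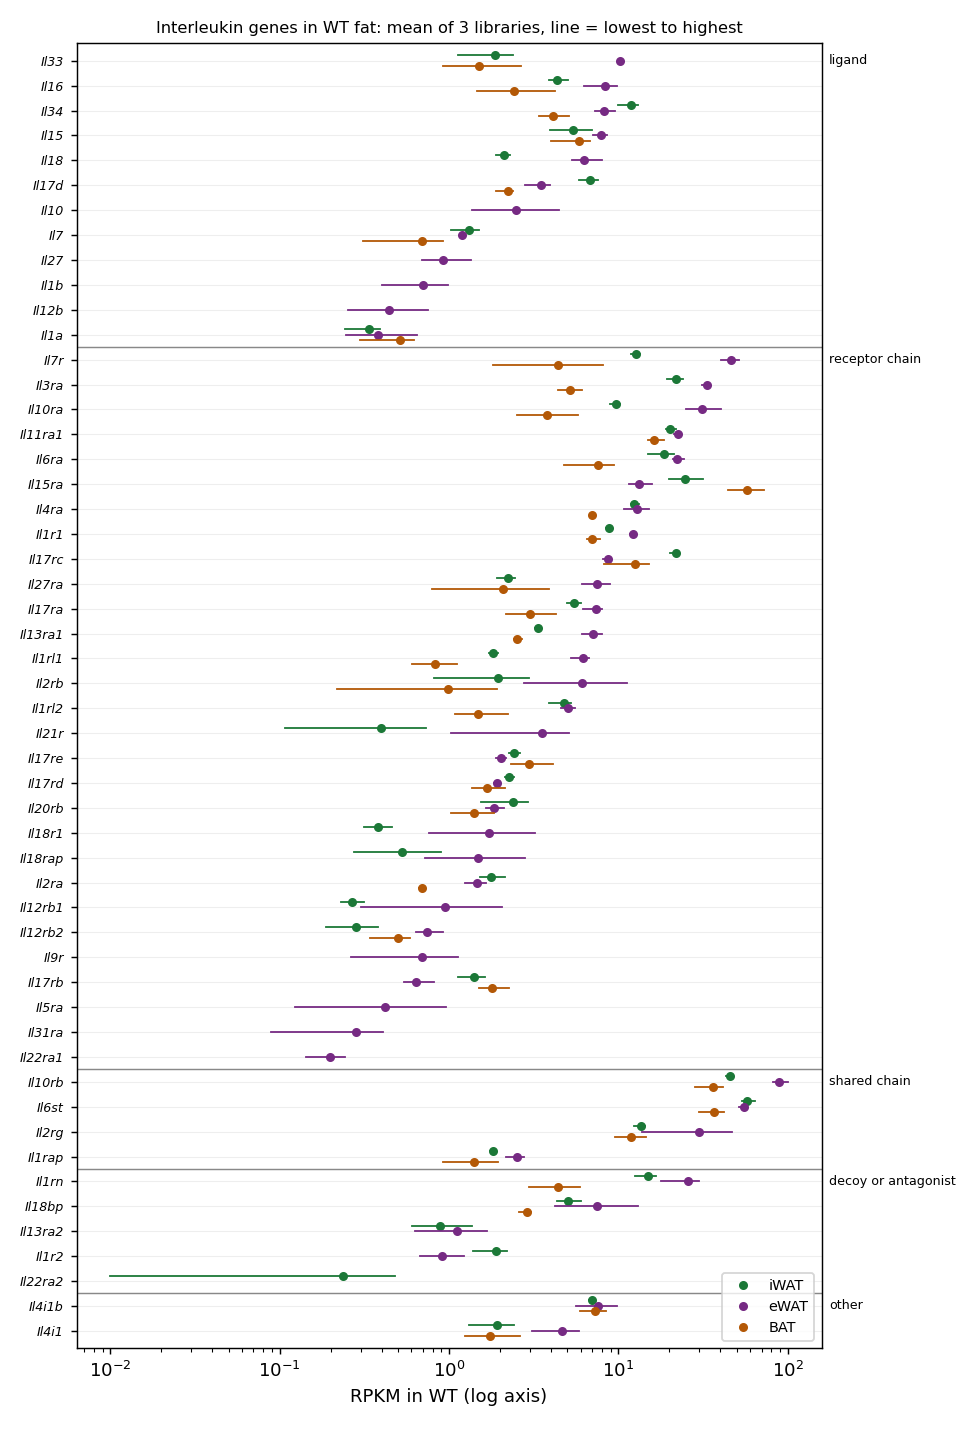
RPKM in WT fat (x axis, log scale) of the described interleukin genes (rows, grouped by role) in iWAT, eWAT and BAT, shown where a gene passed the count rule in that depot. Dots are the mean of 3 WT libraries and lines run from the lowest to the highest library, drawn no lower than 0.01 RPKM. Receptor and shared chains reach the highest values, up to 89.1 RPKM for Il10rb in eWAT, and BAT lies left of eWAT for most members.

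Compared with iWAT, WT eWAT was higher for many receptors and ligands. In 1 fit of all 18 libraries, edgeR called 17 of 52 members higher (32.7%, against 12.8% of all genes) and 4 lower (7.69%, against 12.9%), and the median log2 fold change was 0.69 where that of all genes was 0.01. The higher members were 11 receptor chains, 4 ligands (Il10, Il16, Il18 and Il33) and 2 shared chains. Of these, Il10, Il22ra1 and Il9r met the count rule in eWAT alone, so they were counted only through the depot where they were high. For 7 described members (Il10ra, Il15, Il17re, Il1r1, Il1rl2, Il33 and Il9r) the counted transcript differs between the depot tables. Il33, at 28.2, 26.4 and 26.2 CPM in eWAT and 5.99, 2.86 and 5.32 CPM in iWAT, was 2.51 higher on the log2 scale (± 0.47 SE, edgeR adjusted p = 0.000799). Il1rl1 was 1.76 higher (± 0.23 SE, edgeR adjusted p = 4.86e-05).

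Among the members edgeR called, the 3 with the largest rise were receptor chains at low levels. Of these 3, Il22ra1 and Il9r met the count rule in eWAT alone, so their rank was partly set by that rule. Il22ra1, a chain of the IL-22 receptor, was at 1.41, 0.836 and 1.22 CPM in eWAT against 0, 0.0595 and 0 CPM in iWAT (66 counts against 1, a ratio of 58.9 with a 95% interval from counting alone of 10.2 to 2.36e+03, edgeR adjusted p = 0.00311). Il9r was at 0.812, 2.11 and 3.49 CPM against 0.297, 0.0595 and 0 CPM (edgeR adjusted p = 0.00972). Il21r was at 2.65, 13.3 and 11.6 CPM against 0.8897, 1.903 and 0.2801 CPM (edgeR adjusted p = 0.0141). For Il9r and Il21r the eWAT WT libraries with the most lymphocyte markers, replicates 2 and 3, were the high ones. In the fit of 14 libraries without those high in lymphocyte or muscle markers, neither was called (edgeR adjusted p = 0.229 for Il9r and 0.294 for Il21r). The Il21r call was also lost without iWAT WT replicate 1 or 3 (0.0553 and 0.0588).

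The 4 lower members were Il15ra and the IL-17 family genes Il17rc, Il17rb and Il17d. Il17rc was at 19, 21.2 and 20.6 CPM in eWAT and 47.5, 52.5 and 53.7 CPM in iWAT (log2 fold change -1.34 ± 0.19 SE, edgeR adjusted p = 7.18e-05). Il17rb was at 1.68, 1.13 and 1.11 CPM and 3.32, 2.97 and 2.297 CPM (log2 fold change -1.13 ± 0.31 SE, edgeR adjusted p = 0.0112). Il17d, a ligand of the family, was at 4.49, 4.82 and 3.43 CPM and 9.25, 7.14 and 8.29 CPM (log2 fold change -0.95 ± 0.24 SE, edgeR adjusted p = 0.00685). The depots did not overlap for any of these. The Il17rb call was lost without eWAT WT replicate 2 or 3 (edgeR adjusted p = 0.0522 and 0.0509), and in the fit of 14 libraries neither Il17rb nor Il17d was called (0.298 and 0.165). Macrophage marker sums were 4971 to 6022 CPM in WT eWAT and 1539 to 1734 CPM in WT iWAT, mesothelial sums were 123.5 to 209.3 CPM against 1.55 to 2.91 CPM, and adipocyte sums were 9053 to 10900 CPM against 23700 to 26790 CPM. Without the 4 libraries high in lymphocyte or muscle markers, which leaves 1 WT library in eWAT, 8 members were called higher and 1 lower, and 11.9% of all genes were called in either direction.

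BAT held the least of most members. Against iWAT, edgeR called 16 of 52 members lower in WT BAT (30.8%, against 18.7% of all genes) and 1 higher (1.92%, against 20.1%), with a median log2 fold change of -0.74 where that of all genes was 0.01. Of the lower members, Il13ra2 and Il18 did not meet the count rule in BAT, so they were counted only through depots where they were higher. Among the members called, the largest falls were those of Il13ra2, at 0, 0.655 and 0.331 CPM in BAT and 1.54, 1.37 and 3.08 CPM in iWAT (log2 fold change -2.46 ± 0.81 SE, edgeR adjusted p = 0.0198), and Il3ra, at 8.47, 6.92 and 6.06 CPM and 26.9, 31.2 and 33.1 CPM (log2 fold change -2.09 ± 0.19 SE, edgeR adjusted p = 2.59e-07). Il1rn followed, at 14.6, 7.29 and 10.7 CPM and 38.8, 30.9 and 41.3 CPM (log2 fold change -1.78 ± 0.67 SE, edgeR adjusted p = 0.0402), though DESeq2 gave it no adjusted p and the call was kept in only 11 of 27 alternatives, being lost without any 1 WT library of iWAT or BAT (edgeR adjusted p = 0.0569 to 0.118). The Il13ra2 call was lost without iWAT WT replicate 3 or BAT WT replicate 1 or 3 (0.0569 to 0.0795). With 0, 7 and 3 counts in WT BAT, its place among the largest falls was partly set by the count rule. The 1 higher member was Il15ra, at 94.2, 75.4 and 124 CPM in BAT and 39.2, 53.8 and 34.1 CPM in iWAT (log2 fold change 1.21 ± 0.24 SE, edgeR adjusted p = 0.000615). Every BAT library was below every iWAT library for the 3 lower members and above them for Il15ra.

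Against eWAT, edgeR called 30 of 52 members lower in WT BAT (57.7%, against 23.6% of all genes) and 2 higher (3.85%, against 25%), with a median log2 fold change of -1.38 where that of all genes was 0.03. Of the lower members, Il10, Il12rb1, Il13ra2, Il18, Il18r1, Il18rap and Il22ra1 did not meet the count rule in BAT. They were counted only through depots where they were higher. Since 51 members met the rule in eWAT and 36 in BAT, the share called lower was partly set by that rule. Il22ra1 had no count in any of the 3 WT BAT libraries and 66 in WT eWAT, at least 10.1-fold lower when BAT is set to 3 counts over the group. Il10 had 3 counts in BAT and 191 in eWAT, a ratio of 29.3 (95% interval from counting alone 9.89 to 144, edgeR adjusted p = 0.0021). Il22ra1 and Il10 met the count rule in eWAT alone, so their place among the largest falls was partly set by that rule. Il7r was at 10.7, 25.9 and 5.84 CPM in BAT and 164, 129.7 and 152 CPM in eWAT (log2 fold change -3.38 ± 0.55 SE, edgeR adjusted p = 0.000106). The higher members were Il15ra, at 20.8, 26.95 and 19.6 CPM in eWAT (log2 fold change 2.12 ± 0.25 SE, edgeR adjusted p = 1.61e-06), and Il17rb (1.496 ± 0.32 SE, edgeR adjusted p = 0.000741). BAT and eWAT did not overlap for these 3 genes. In the fit of 14 libraries Il10 and Il17rb were not called (edgeR adjusted p = 0.065 and 0.0619). Macrophage sums were 649.2 to 828 CPM in WT BAT. The 3 depot comparisons share the WT libraries of each depot.

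Whether the C6KO difference itself varied between depots was tested as an interaction in the fit of all 18 libraries, and edgeR called 0 members for any pair. Of all genes it called 0% lower and 0% higher for eWAT against iWAT, 0.113% and 0.0693% for BAT against iWAT, and 0.485% and 0.0504% for BAT against eWAT. Unadjusted p was below 0.05 for 0 members lower and 4 higher in eWAT against iWAT (1.85% and 3.62% of all genes), 4 lower and 1 higher in BAT against iWAT (6.37% and 3.56%), and 5 lower and 1 higher in BAT against eWAT (8.34% and 2.89%). DESeq2 called 0, 0 and 1 lower, the last being Il7r, against 0.0303%, 0.773% and 2.11% of all genes, and 0 higher, against 0.0545%, 0.495% and 0.379%.

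Il7r had the smallest p in 2 of the 3 pairs. Its C6KO log2 fold change in BAT was 3.94 below that in eWAT (interaction -3.94 ± 0.902 SE, edgeR adjusted p = 0.0769, DESeq2 0.00152). Between eWAT and iWAT the Il7r interaction was 1.898 ± 0.71 SE (edgeR adjusted p = 0.89), followed by Il13ra2 at 2.31 and Il1rn at 1.92 (adjusted p = 0.896 and 0.905). For these genes C6KO was below WT in iWAT without overlap, and overlapped WT in eWAT. Between BAT and iWAT, Il17rb came first (-1.495 ± 0.44 SE, edgeR adjusted p = 0.262, DESeq2 0.0568). C6KO was above WT for it in iWAT and below WT in BAT, without overlap in either.

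Il1rap, the shared chain of the IL-1, IL-33 and IL-36 receptors, and Il7 came next in both pairs with BAT. Il1rap was at 6.13, 8.88 and 4.19 CPM (WT) against 2.69, 3.51 and 3.43 CPM (C6KO) in BAT, with no overlap. It overlapped in eWAT, at 12.6, 11.9 and 9.93 CPM (WT) against 13.1, 11.9 and 12.4 CPM (C6KO), and in iWAT, at 8.42, 8.45 and 8.01 CPM (WT) against 5.94, 6.81 and 9.69 CPM (C6KO). Its interactions were -1.12 and -0.85 (edgeR adjusted p = 0.187 and 0.429). The Il7 interactions were -1.53 and -1.36 (edgeR adjusted p = 0.3 and 0.443). Without iWAT C6KO replicate 3, edgeR called 2 members for eWAT against iWAT (Il1rn and Il7r), 1 for BAT against iWAT (Il1rn) and 1 for BAT against eWAT (Il7r), and without BAT WT replicate 3 it called Il7r for BAT against eWAT.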

How the data were processed

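RNA-seq libraries from poly(A) RNA of 3 depots were sequenced on a NextSeq 2000. The authors aligned reads to mm10 with STAR at default settings, and the deposited tables hold raw counts over exons per gene from HOMER, with 1 transcript kept per gene. Tool versions, annotation release and use of strand are not given in the sources used here. The authors compared groups with DESeq2. Replicate libraries were given as biological, and no label ties a number to an animal across depots.

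Here the counts were tested as deposited with edgeR 4.0.16 (R 4.3.3, limma 3.58.1): filterByExpr, TMM scaling, quasi-likelihood F-test with robust fitting and Benjamini-Hochberg adjustment over the 14533 (iWAT), 14889 (eWAT) and 13595 (BAT) genes tested. C6KO was compared with WT within each depot (3 against 3). Depots in WT and interactions came from 1 fit of 18 libraries over 15866 genes. A call needed an adjusted p below 0.05 and a fold of at least 1.5. DESeq2 1.42.0 was the alternative test, and its adjusted p was left as missing where it gave none. CPM and RPKM were computed from the deposited counts. The fits were tested on simulated data first. Counting intervals (95%) and the floor of 3 counts cover counting error only.

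Genes named are those called by either tool in a C6KO comparison, those without overlap in at least 2 depots in 1 direction, all decoys and antagonists with enough counts, Il6 and Il1b, the 5 highest RPKM values per WT depot, the 3 largest calls per direction and depot pair, and the 3 smallest p-values per interaction. From the pathway lists, the 2 smallest p-values per depot are named. Il4ra, Il33, Il34, Il15, Il18, Il7, Il17d and Il17re are partners, ligands or family relatives added after their values were seen. Members and lists were chosen with earlier results of these data known. Promoter windows came from RefSeq (GRCm38.p6, the assembly of mm10).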

Additional observations from a re-analysis of the deposited data

How the results depend on the processing

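Choices of test and scaling moved the small C6KO counts. In iWAT, where edgeR called 0 members, DESeq2 called 5 and the fit of all 18 libraries 3 (Il13ra1, Il1rl1 and Il7r). In eWAT, where 1 member was called, DESeq2 called 6, and 0 were called with total counts as scaling, in the fit of all 18 libraries and in a fit of 14 libraries without those high in lymphocyte or muscle markers, an alternative chosen after seeing the data. In BAT, where 1 was called, DESeq2 and no filter on low counts each called 2 (Il2rg and Il7r), the fit of all 18 libraries 4, and at least 10 counts in every library 0. Leaving out each library in turn gave 0 to 7 calls in iWAT (7 without C6KO replicate 3 and 0 otherwise) and 0 to 1 for both eWAT (1 without C6KO replicate 2 or 3) and BAT (1 without WT replicate 2 or 3). The 21 members called between eWAT and iWAT in WT became 13 with at least 10 counts in every library and 9 in the fit of 14 libraries. Interactions gave 0 calls in edgeR, 1 in DESeq2 for BAT against eWAT, and, leaving out 1 library, 0 to 2 for eWAT against iWAT, 0 to 1 for BAT against iWAT and 0 to 1 for BAT against eWAT. The share of all genes called is not given for most of these settings. Without it, the counts do not show whether members moved more than other genes. The cause of these shifts was not tested.

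Signs turned for small values only. Il1r1 in eWAT ranged from -0.146 to 0.0385 when 1 library was left out, Il1b in eWAT from -0.5542 to 0.1249 and Il10rb in BAT from -0.06644 to 0.1659. In the fit of 14 libraries Il1b in eWAT was 0.25, Il10rb in BAT -0.09837 and Il17rc in BAT -0.01001. The other log2 fold changes that were recomputed kept their direction under each alternative run.

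Same-numbered libraries of the 2 genotypes correlated at -0.603 to 0.161 and those of different depots at -0.066 to 0.219, so the numbers were not taken to pair samples. Libraries with different numbers were not compared, so these values cannot exclude that depots came from the same animals. The depot and interaction tests treated all 18 libraries as independent, and shared animals could affect their p-values. With the replicate number as a block, 0 members were called in iWAT, 1 in eWAT (Il1rl1) and 0 in BAT. The depths limit members under about 10 counts, such as Il6, for which no difference could be seen.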
